A study of Homo sapiens with 18 samples.

Results

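The S100A genes encode small calcium-binding proteins, and 9 of them formed the group described here, namely S100A1, S100A2, S100A3, S100A4, S100A6, S100A10, S100A11, S100A13 and S100A16. They were chosen by name, as the S100A genes of chromosome band 1q21 that are expressed in mesenchymal cells. Each matched 1 of the 58302 genes in the deposited count table by its Ensembl identifier. RNA came from U87MG, an established human glioblastoma cell line, here labelled U87 and, for the control libraries, U87-WT. The 2 control libraries came from cells kept in normal growth medium, and the 2 Erastin libraries from cells given 10 μM Erastin for 72 h. The paper names DMSO as the control of its Western blot and states no vehicle for the RNA-seq controls. Erastin blocks system Xc-, the cystine importer, and starves cells of glutathione. The labels call the libraries biological replicates and name no separate cultures, so the p-values measure the spread between these libraries.

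S100 proteins carry a pair of EF-hand loops and usually work as dimers. Calcium binding opens a surface on the dimer through which it holds a target protein, often an annexin, a cytoskeletal protein or a transcription factor. They have no enzymatic activity, and several are also released from cells and act on receptors such as RAGE (encoded by AGER) and TLR4. In gliomas, S100A4, S100A6, S100A10 and S100A11 are often counted among the genes of the mesenchymal state.

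The counts on genes totalled between 29412656 and 31513519 reads per library, and 16751 genes were tested. Known markers were checked against the label. The summed level of 8 mesenchymal markers (VIM, CD44, FN1, SPARC, TGFBI, COL1A1, THY1 and LGALS1) was 11340 to 11760 CPM (reads scaled to the TMM-normalized size of the library) in control libraries and 4366 to 4585 CPM in Erastin libraries, and THY1 was at 0 or 1 count. Of these markers 7 were tested, and 7 were lower with Erastin. The summed level of 6 glial markers was 35.2 to 46.2 CPM in control and 7.16 to 8.19 CPM in Erastin libraries, most of it in the control libraries from NES, while AQP4 had no counts and S100B had 2 counts in 1 library. The 6 epithelial markers summed to at most 0.547 CPM in any library, the 6 myeloid ones to at most 9.12 CPM, most of it from CSF1R, and the 3 lymphoid ones to at most 0.100 CPM. The 3 endothelial markers summed to 4.64 to 6.18 CPM in control and 1.64 to 2.07 CPM in Erastin libraries, with PECAM1 lower, VWF higher and CDH5 at 0 or 1 count. The 3 neuronal ones summed to 37.0 to 40.8 CPM in control and 4.75 to 5.38 CPM in Erastin libraries, most of it SNAP25. The share of reads on the mitochondrial chromosome was 7.23% and 7.85% in control and 2.80% and 3.54% in Erastin libraries. The part of these shifts in the results that follow was not tested. In bulk RNA, fewer cells with a transcript and less of it per cell cannot be told apart.

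The 9 genes lie on chromosome 1 of GRCh38 in 2 groups. S100A10 (ENSG00000197747, 151982915 to 151994390) and S100A11 (ENSG00000163191, 152032506 to 152047907) are neighbours. The other 7 lie 1487 kb further on, packed into 97.4 kb from S100A6 (ENSG00000197956, 153534599 to 153536244) to S100A1 (ENSG00000160678, 153627926 to 153632039). Between these ends come S100A4 (ENSG00000196154, 153543613 to 153550136), S100A3 (ENSG00000188015, 153547329 to 153549372), S100A2 (ENSG00000196754, 153561108 to 153567890), S100A16 (ENSG00000188643, 153606886 to 153613145) and S100A13 (ENSG00000189171, 153618787 to 153631360). S100A1 is on the plus strand and the other 8 on the minus strand. S100A3 lies wholly within the span of S100A4 but shares no exonic base with it. S100A1 and S100A13 overlap on opposite strands over 235 exonic bases.

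The stretches before the start sites of 4 of these genes are shown because they set an adjacent pair with unlike responses (S100A3 and S100A4) beside a gene that was lower with Erastin (S100A16, with both of its RefSeq starts) and one that was higher (S100A11). Each is the 250 bases before a RefSeq start (GRCh38.p14, minus strand, read 5′ to 3′ along the gene), and only windows without an annotated UTR base (GENCODE release 44) are printed. Capitals mark matches, on either strand, to 5 motifs. They are TATAAA for the TATA box, GGGCGG for the GC box, the 5 letters CCAAT for the box of that name, TGANTCA for an AP-1 site and TGACNNNGC for the core of an antioxidant response element.
S100A3, chr1:153549259-153549508: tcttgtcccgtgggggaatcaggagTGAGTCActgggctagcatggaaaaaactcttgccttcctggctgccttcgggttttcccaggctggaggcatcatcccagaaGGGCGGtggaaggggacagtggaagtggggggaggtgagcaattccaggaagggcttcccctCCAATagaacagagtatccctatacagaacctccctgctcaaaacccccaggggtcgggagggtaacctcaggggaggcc
S100A4, chr1:153545807-153546056: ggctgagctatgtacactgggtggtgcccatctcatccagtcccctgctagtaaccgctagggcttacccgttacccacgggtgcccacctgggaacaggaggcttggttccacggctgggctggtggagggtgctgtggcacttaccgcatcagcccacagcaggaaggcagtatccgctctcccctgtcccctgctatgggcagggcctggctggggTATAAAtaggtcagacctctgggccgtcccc
S100A11, chr1:152037005-152037254: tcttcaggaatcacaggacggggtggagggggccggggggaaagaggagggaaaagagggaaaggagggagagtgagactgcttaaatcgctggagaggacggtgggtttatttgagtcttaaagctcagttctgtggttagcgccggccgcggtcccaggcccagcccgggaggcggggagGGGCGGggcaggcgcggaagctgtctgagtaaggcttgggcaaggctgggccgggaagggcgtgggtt
S100A16, first start, chr1:153613138-153613387: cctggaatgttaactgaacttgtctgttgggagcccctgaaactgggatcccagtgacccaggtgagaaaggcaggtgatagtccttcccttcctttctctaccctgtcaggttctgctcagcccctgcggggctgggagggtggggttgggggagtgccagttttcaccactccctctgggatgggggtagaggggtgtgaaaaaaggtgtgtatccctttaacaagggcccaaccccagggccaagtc
S100A16, second start, chr1:153609356-153609605: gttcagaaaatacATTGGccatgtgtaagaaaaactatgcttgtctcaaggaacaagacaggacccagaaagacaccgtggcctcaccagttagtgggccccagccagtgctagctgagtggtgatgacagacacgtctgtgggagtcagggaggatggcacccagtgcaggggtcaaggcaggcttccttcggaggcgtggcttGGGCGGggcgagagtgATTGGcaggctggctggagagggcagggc

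The window of S100A3 held 1 AP-1 match, 1 GC box and 1 CCAAT box, and that of S100A4 a TATA box 31 bases before the start. The window of S100A11 held 1 GC box. No match was found before the first start of S100A16, while the second had 1 GC box and 2 CCAAT boxes. Among all 35116 RefSeq windows of this length, 10.7% held the TATA box, 42.6% the GC box, 32.0% the CCAAT box, 6.57% the AP-1 site and 10.9% the antioxidant core. In the count table's annotation 114 bases of the S100A3 window, 79 of the S100A4 window, 31 of the S100A11 window and 8 of the first S100A16 window are exonic in transcripts of the same gene that reach further upstream, and the second S100A16 window is intronic. These matches describe the letters only.

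The members spanned a wide range of expression. Levels between genes were compared as RPKM, here normalized CPM per kilobase of exon. In control cells S100A6 stood highest at 1023 ± 1.69 RPKM (SD, n = 2), ranking 24 and 22 among all genes of its library, followed by S100A11 at 616 ± 19.8 RPKM (SD, n = 2) and S100A10 at 328 ± 18.4 RPKM (SD, n = 2). S100A16 came next at 155 ± 5.76 RPKM (SD, n = 2) and S100A3 at 25.0 ± 0.369 RPKM (SD, n = 2). S100A4, S100A2 and S100A13 lay between 3.60 and 4.97 RPKM in single control libraries. The range of S100A2 overlapped those of S100A4 and S100A13, so that its place is not resolved. S100A4 and S100A13 lay barely apart, at no less than 4.24 and at most 4.18 RPKM. S100A1 was lowest at 0.203 ± 0.0432 RPKM (SD, n = 2). Of the 9 transcripts' summed RPKM, the 4 highest took 98.2% in both control libraries and 99.0% in both Erastin libraries.

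With Erastin the first 5 places were held by the same genes in the same order, S100A6 at 1172 ± 68.7 RPKM (SD, n = 2) and S100A11 at 844 ± 28.3 RPKM (SD, n = 2) ahead of S100A10, S100A16 and S100A3. Below them S100A4 moved from sixth to eighth place by its mean of 3.84 ± 0.561 RPKM (SD, n = 2), behind S100A2 at 5.93 ± 0.148 RPKM (SD, n = 2) and S100A13 at 4.37 ± 0.0977 RPKM (SD, n = 2). S100A13 shares 33.5% of its exonic bases with other genes, mostly with ENSG00000271853 on its own strand, which had no counts, and reads on shared bases were not counted. Per kilobase of unshared exon its level was 5.86 RPKM in control and 6.57 RPKM in Erastin cells, which would place it ahead of S100A4 and S100A2 in both groups.

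**Figure D1:**
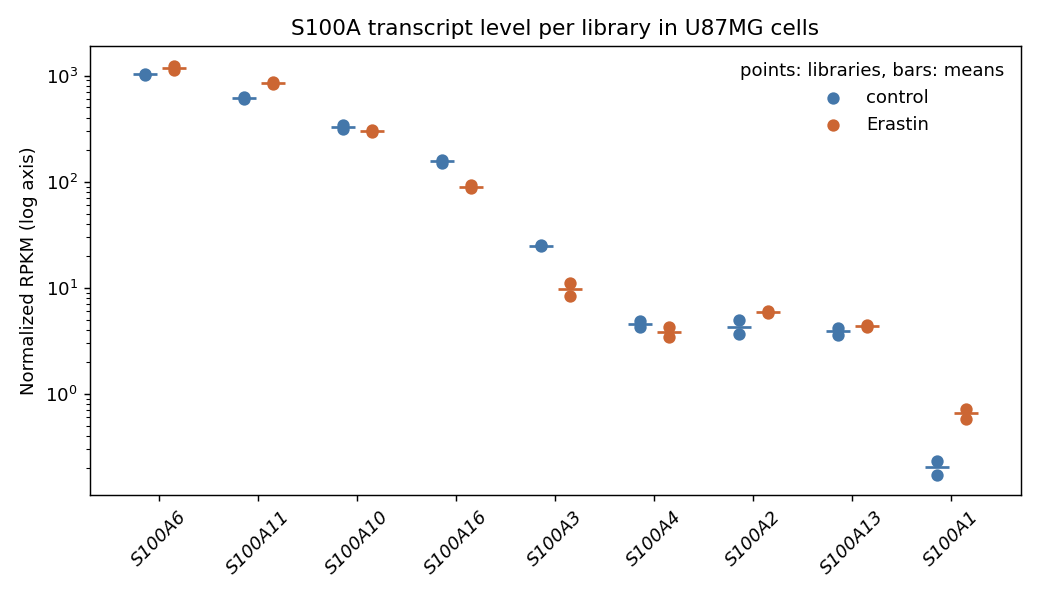
Normalized RPKM of the 9 S100A transcripts on a log axis, ordered by their control mean. Points are single libraries (2 control, 2 Erastin) and bars the means. S100A6 is highest at 1023 RPKM and S100A1 lowest at 0.203 RPKM in control cells, and S100A3 and S100A16 sit visibly lower with Erastin.

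Transcripts of the family differed in both directions with Erastin. Of the 9 members, 3 were higher (S100A1, S100A6 and S100A11), 2 were lower (S100A3 and S100A16) and 4 were not called (S100A2, S100A4, S100A10 and S100A13) at an adjusted p under 0.05 from edgeR's quasi-likelihood test. Over all tested genes, 23.2% were higher and 23.7% were lower, 47% together. The 5 of 9 called members are therefore close to the background. With the study's limit of a log2 fold change of at least 1 added, 1 member was up (S100A1) and 1 was down (S100A3), against 6.24% and 9.34% of all tested genes. The median log2 fold change of the members was 0.17 and that of all tested genes was −0.0026. For 5 members both Erastin values exceeded both control values in normalized CPM, and for 4 both were below (among them S100A10, whose mean on the TPM scale was instead higher with Erastin), so that the groups overlapped for none of the 9, where 73.6% of all tested genes also had groups that did not overlap.

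**Figure D2:**
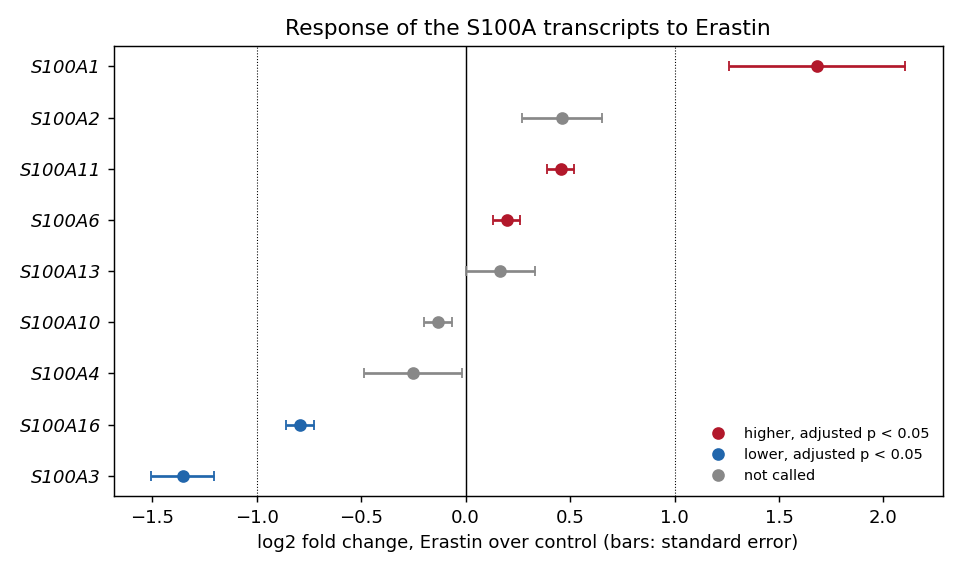
Log2 fold change (Erastin over control) of the 9 S100A transcripts with standard errors, from 2 libraries per group. Dotted lines mark a log2 fold change of 1 in either direction. S100A1 at 1.68 and S100A3 at −1.35 lie beyond them, and the 4 grey genes did not pass the test.

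The 3 most abundant members, S100A6, S100A11 and S100A10, all bind annexins. Changes are given as the log2 ratio, the log2 fold change of Erastin over control. S100A6, also called calcyclin, binds annexins and the ubiquitin ligase adaptor CACYBP. Its counts were 30326 and 30882 in control libraries and 32616 and 37227 in Erastin libraries. Both Erastin libraries were higher, by unequal amounts. The mean level rose from 993 ± 1.65 CPM in control to 1138 ± 66.7 CPM in Erastin cells (means ± SD of 2 libraries). Its log2 ratio was 0.20 ± 0.0653 (standard error, edgeR adjusted p = 0.0273), or 1.15-fold. It shares 23 exonic bases with ENSG00000238279 on the other strand, which had 42 to 64 counts per library. The call rested on 1 library, since without Erastin replicate 2 the log2 ratio was 0.14 with an adjusted p of 0.282 from edgeR.

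S100A11, a partner of annexin A1 with roles in membrane repair, had 12509 and 13299 counts in control libraries and 16751 and 18452 in Erastin libraries. The groups stood clearly apart. Its level rose from 419 ± 13.4 CPM in control to 574 ± 19.2 CPM in Erastin cells (means ± SD of 2 libraries), a log2 ratio of 0.45 ± 0.0642 (standard error, edgeR adjusted p = 1.13e-04). Of the 31-base words in its transcripts, 15.4% also occur elsewhere in GRCh38, on chromosomes 7, 12 and X, and reads that match several places were not counted. The 8 genes named as its pseudogenes had at most 4 counts in any library.

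S100A10, or p11, needs no calcium to hold its target and joins annexin A2 in a complex that recruits plasminogen to the cell surface. It had 14861 and 16345 counts in control libraries and 13584 and 14747 in Erastin libraries. Its level was 506 ± 28.4 CPM (SD, n = 2) in control and 462 ± 10.7 CPM (SD, n = 2) in Erastin cells. The log2 ratio of −0.13 ± 0.0662 (standard error, edgeR adjusted p = 0.124) did not pass, with a 95% interval from −0.28 to 0.013. Without control replicate 1 it was −0.19 with an adjusted p of 0.0153, without control replicate 2 it was −0.082 with an adjusted p of 0.371, and with library totals it was −0.083 with an adjusted p of 0.341, all from edgeR. The neighbouring pair S100A11 and S100A10 thus changed places by raw counts only. There were 0.842 and 0.814 reads on S100A11 for each read on S100A10 in control libraries, and 1.23 and 1.25 in Erastin libraries. Scaling between libraries cannot move this ratio, but scaling by gene length can. Per kilobase, S100A11 stood above S100A10 at 616 against 328 RPKM in control and 844 against 299 RPKM in Erastin cells.

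S100A16, a broadly expressed member of less settled function, had 8286 and 7988 counts in control libraries and 4695 and 4653 in Erastin libraries. Both Erastin libraries were far below both controls. Its level fell from 264 ± 9.79 CPM in control to 153 ± 6.28 CPM in Erastin cells (means ± SD of 2 libraries), a log2 ratio of −0.79 ± 0.0680 (standard error, edgeR adjusted p = 2.00e-06). It had the smallest adjusted p of the 9 and did not reach the fold limit. Against S100A6, the other abundant gene of the distal group, there were 3.66 and 3.87 reads on S100A6 per read on S100A16 in control libraries and 6.95 and 8.0 in Erastin libraries.

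S100A3, a cysteine-rich zinc-binding member best known from the hair cuticle, had 721 and 748 counts in control libraries and 239 and 334 in Erastin libraries. The control libraries were nearly alike, whereas the Erastin libraries differed from each other. Its level fell from 23.8 ± 0.353 CPM in control to 9.31 ± 1.87 CPM in Erastin cells (means ± SD of 2 libraries), a log2 ratio of −1.35 ± 0.150 (standard error, edgeR adjusted p = 1.63e-05), or 2.56-fold lower. Leaving out single libraries gave log2 ratios between −1.58 and −1.17. By edgeR's glmTreat, which tests the change against the limit of 1 itself, the edgeR adjusted p was 0.0610 for S100A3.

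S100A4, which binds the heavy chain of non-muscle myosin and is linked to cell motility, encloses S100A3 on the same strand. It had 133 and 156 counts in control libraries and 130 and 111 in Erastin libraries, or means of 4.69 ± 0.475 CPM and 3.94 ± 0.575 CPM (± SD over 2 libraries). Normalized values of the groups almost touched, at 4.350 CPM in the lower control library and 4.346 CPM in the higher Erastin library. Its log2 ratio was −0.25 ± 0.236 (standard error, edgeR adjusted p = 0.415), with a 95% interval from −0.77 to 0.27. For each read on S100A4 there were 5.42 and 4.79 on S100A3 in control libraries and 1.84 and 3.01 in Erastin libraries. S100A5, which lies between S100A6 and S100A4, had 0 to 5 counts per library.

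S100A2, found mostly in epithelia, had 238 and 178 counts in control libraries and 283 and 287 in Erastin libraries. The control libraries lay further from each other than the higher of them lay from the Erastin libraries. Its log2 ratio of 0.46 ± 0.191 (standard error, edgeR adjusted p = 0.0679) had a 95% interval from 0.042 to 0.88, unadjusted. With a replicate block the adjusted p was 0.0404 and with library totals 0.0412, and without control replicate 1 the log2 ratio was 0.70 with an adjusted p of 0.00614, all from edgeR. Without control replicate 2 the log2 ratio was only 0.25 with an edgeR adjusted p of 0.366, and DESeq2 gave 0.46 with an adjusted p of 0.166, so whether S100A2 passed depended on the setting and on which control library was kept.

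S100A13 and S100A1 overlap across strands at their 5′ ends, and the counting ignored strand. S100A13 assists the release of FGF1 and IL1A, proteins that lack a signal peptide. It had 244 and 288 counts in control libraries and 285 and 309 in Erastin libraries. Its log2 ratio of 0.17 ± 0.164 (standard error, edgeR adjusted p = 0.440) had a 95% interval from −0.19 to 0.53. S100A1, a calcium sensor of heart and skeletal muscle, had 16 and 22 counts in control libraries and 53 and 69 in Erastin libraries. Every Erastin value was above every control value. Its level rose from 0.616 ± 0.131 CPM in control to 1.98 ± 0.300 CPM in Erastin cells (means ± SD of 2 libraries). The log2 ratio was 1.68 ± 0.421 (standard error, edgeR adjusted p = 0.00619), or 3.21-fold, with an adjusted p of 0.206 by glmTreat. It remained the scarcest member in every library, with 0.0656 and 0.0764 reads per read on S100A13 in control libraries and 0.186 and 0.223 in Erastin libraries. Without strand, reads of this pair that fall on the other gene's exons cannot be told apart from that gene's own.

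The remaining S100A genes of the band were close to silent. The members were chosen as those expressed in mesenchymal cells, so this contrast was partly set by the choice. Of 8 genes (S100A5, S100A7, S100A7A, S100A7L2, S100A8, S100A9, S100A12 and S100A14), 4 had no count in any library, namely S100A7A, S100A7L2, S100A8 and S100A12. If every count were independent, this would allow a level of up to 0.0952 to 0.102 CPM per library (3 counts, before normalization) by counting error alone. Each read of a pair was counted, so the true limit is higher. S100A7 had 2 counts in 1 control library, S100A9 had 2 counts in each control library and 0 with Erastin, and S100A14 had 0 to 6 counts per library. S100A8 and S100A9 form calprotectin, the S100 protein of neutrophils and monocytes. Outside the band, S100G had no counts, S100B had 2 and S100P had 4 counts in 1 Erastin library each, and S100Z had 27 and 37 counts in control and 37 and 31 in Erastin libraries (log2 ratio 0.10 ± 0.444 by its standard error, edgeR adjusted p = 0.879).

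The annexins bind membranes in a calcium-dependent way and are the main targets of the abundant members. Of 13 annexin genes, 10 were tested, and 5 were higher, 4 were lower and 1 was not called, where 23.2% and 23.7% of all tested genes were higher and lower. Their median log2 ratio was 0.017. ANXA1, the partner of S100A11, had 49538 and 53103 counts in control libraries and 89783 and 93953 in Erastin libraries, a log2 ratio of 0.85 ± 0.0623 (standard error, edgeR adjusted p = 5.44e-07) in the same direction as S100A11. ANXA2, the partner of S100A10, had 46679 and 48053 counts in control libraries and 38743 and 40141 in Erastin libraries, a log2 ratio of −0.26 ± 0.0604 (standard error, edgeR adjusted p = 0.00425), beside −0.13 for S100A10. ANXA11, a target of S100A6, fell by 0.59 on the log2 scale, and ANXA6, a target of S100A6 and S100A11, by 1.13, where both members were higher. ANXA4 rose by 1.04 on the log2 scale, ANXA7 by 0.22, ANXA8 by 0.90 and ANXA8L1 by 1.46, the last pair being near-identical copies whose reads are hard to assign. ANXA5 fell by 0.18, and ANXA9 had −0.53 without passing the test.

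**Figure D3:**
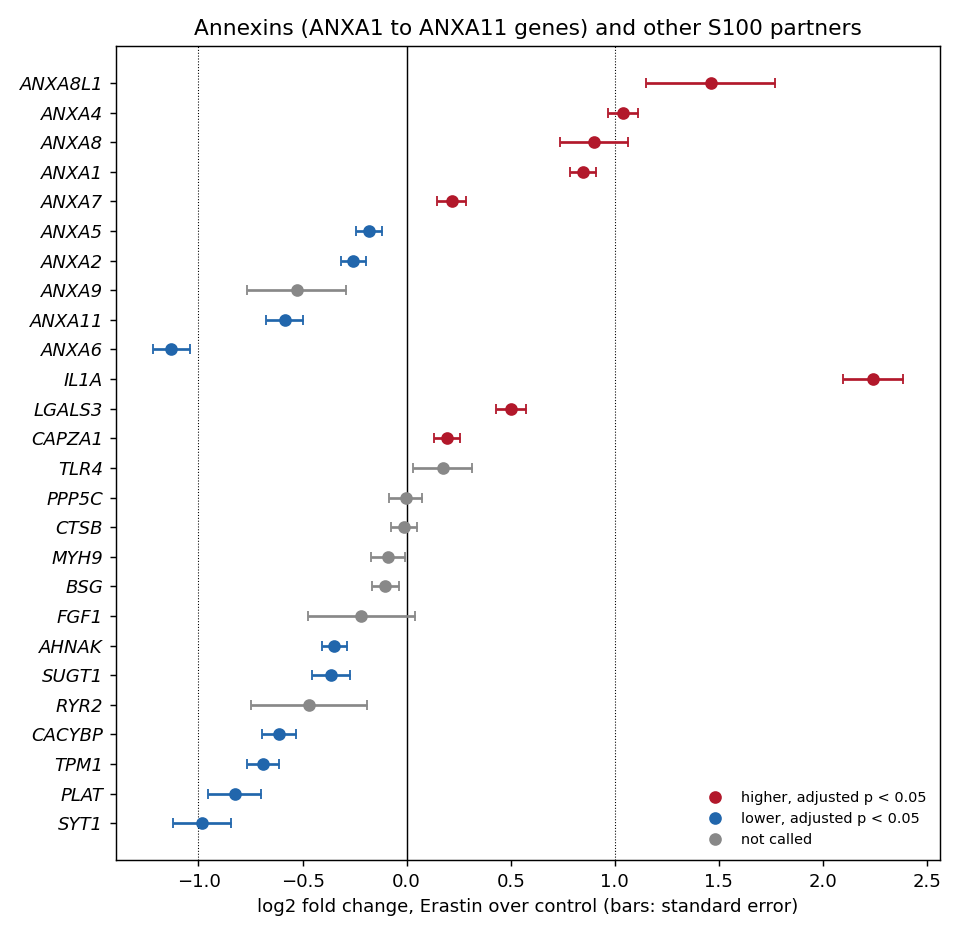
Log2 fold change (Erastin over control) with standard errors for the 10 tested annexins, upper part, and other tested S100 partners and receptors, lower part. ANXA1 lies at 0.85, ANXA2 at −0.26 and IL1A at 2.24, and grey genes did not pass the test.

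Of 18 other partners and receptors, 17 were tested, and 4 were higher, 6 lower and 7 not called, beside 47% called either way among all tested genes. Their median log2 ratio was −0.10. IL1A, the cytokine released with the help of S100A13, had the largest change, from 149 and 142 counts in control libraries to 671 and 699 in Erastin libraries (log2 ratio 2.24 ± 0.142 by its standard error, edgeR adjusted p = 1.55e-07), beside 0.17 for S100A13. The synaptotagmin gene SYT1 fell by 0.98 on the log2 scale. CACYBP, the partner of S100A6, fell by 0.61, PLAT, the plasminogen activator that the S100A10 complex binds, by 0.83, and the tropomyosin gene TPM1 by 0.69. MYH9, the myosin target of S100A4, had −0.087 (adjusted p = 0.412 from edgeR) and, like AGER, was picked for mention after its value was seen. The receptor gene AGER had 6 and 16 counts in control libraries and 0 and 4 in Erastin libraries and was not tested.

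Among 21 other EF-hand calcium sensors, 19 were tested, with 3 higher, 5 lower and 11 not called, beside the same 47% over all tested genes, and a median log2 ratio of −0.0059. CALM3, 1 of the 3 calmodulin genes, fell by 1.17 on the log2 scale and was the only one of the list past the fold limit. GCA fell by 0.71, HPCAL1 by 0.67 and CAPN2 by 0.36, whereas NCS1 rose by 0.70 and RCN1 by 0.35.

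The surroundings of the members on chromosome 1 were examined over a window from 151482915 to 154132039, which reaches 500 kb beyond the first and last member. It holds 145 other genes, of which 77 had no count in any library and 37 were tested. Of these, 16 were higher and 3 lower, with 10 up and 2 down past the fold limit and a median log2 fold change of 0.27. Over all tested genes, 23.2% were higher and 23.7% lower, with 6.24% up and 9.34% down past the fold limit. Called either way were 51.4% of the neighbours, beside 47% of all tested genes. The 10 tested genes between S100A11 and S100A6 belong to or flank the epidermal differentiation complex, which encodes proteins of the skin barrier. Their median was 3.47, and 8 of them were up, beside 6.24% of all tested genes. They were FLG, FLG-AS1, CCDST, HRNR, FLG2, SPRR2D, LCE1F and IVL, with log2 fold changes from 2.58 for IVL to 4.25 for FLG-AS1, beside 0.45 for S100A11 and 0.20 for S100A6, which border that stretch. FLG lies within the span of FLG-AS1 on the opposite strand, so reads of one may have been counted on the other. The span of FLG-AS1, from 152168125 to 152445456, also encloses CCDST, HRNR and FLG2. The counting ignored strand, and shared exons of these genes were not examined, so their rises may not be separate. CCDST, LCE1F and SPRR2D had 0 to 6 counts per control library, so that their fitted values depend on the prior count. FLG2 and IVL had 4 to 10 counts per control library. CCDST, LCE1F, SPRR2D, FLG2 and IVL passed the low-count filter only through their Erastin libraries. FLG, HRNR and FLG-AS1 had 25 to 86 counts per control library, above the minimum count of 10. Genes this low in control could be tested only if higher with Erastin. The count of 8 up and the median of 3.47 were therefore partly fixed by the filter. The other 27 tested neighbours had a median of 0.053 with 8 higher and 3 lower, beside 23.2% and 23.7% of all tested genes. Among them, CGN fell by 1.41 and ENSG00000249602 rose by 2.12. The latter had 8 and 11 counts in control libraries and 40 and 43 in Erastin libraries, and its control counts alone would not have passed the filter. Its span lies within that of OAZ3, and their shared exons were not examined either.

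**Figure D4:**
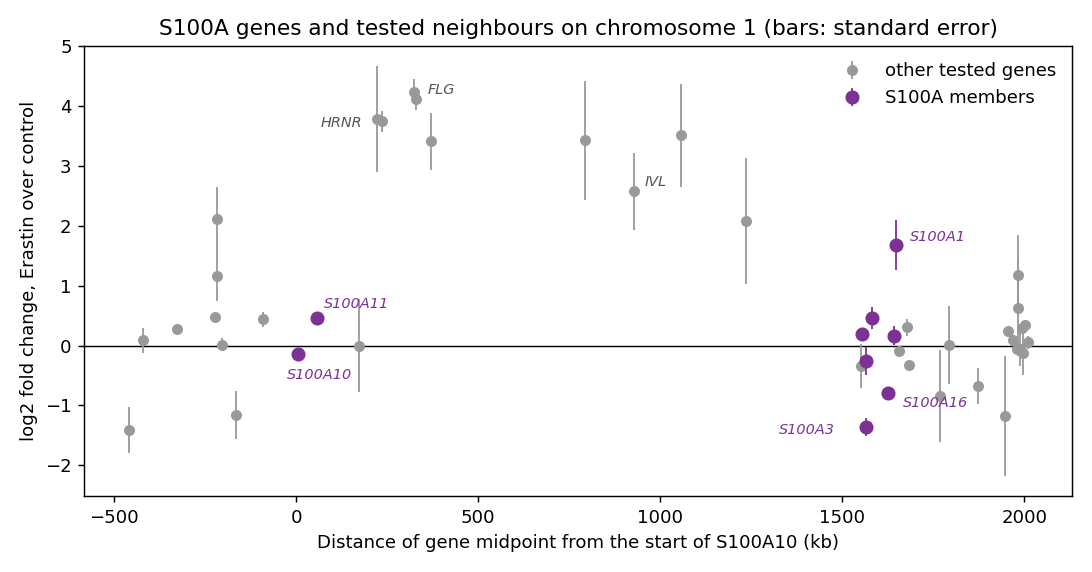
Log2 fold change (Erastin over control) with standard errors of the 9 S100A members and 37 tested neighbours against the distance of each gene's midpoint from the start of S100A10, in kb. The genes between the 2 groups of members reach 4.25, whereas the members lie between −1.35 and 1.68.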

How the data were processed

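RNA-seq of 4 libraries was analysed, 2 control and 2 Erastin. The authors deposited raw counts of reads per gene, which per the file header were made by featureCounts 2.0.3 (2.0.4 in the submitters' processing notes) with Ensembl release 90 on GRCh38, without strand. The table was also tested for the decimals of estimated counts, but every value the authors deposited was whole. Alignment was by HISAT2 2.1.0. The methods name htseq-count. Pairs were not counted as units, so each read of a pair counted, and reads on several places or genes were left out. The depth of 29412656 to 31513519 counts covers counting error only, since PCR copies are not independent.

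Genes were tested with edgeR 4.0.16 in R 4.3.3. filterByExpr (minimum count 10) kept 16751 genes, TMM gave factors from 0.971 to 1.02, and the quasi-likelihood test without a block compared the groups, two-sided, with Benjamini-Hochberg adjustment over all tested genes. Limits were an adjusted p of 0.05 and, as in the study, a log2 fold change of 1. Standard errors came from the F statistic, and 95% intervals from the t distribution with 9.48 prior and 2 residual degrees of freedom, unadjusted. For single values, 2 libraries a group allow no two-sided exact permutation p under 0.333. RPKM used the table's exonic lengths. The fit was tested on simulated data.

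The members, gene lists, tests and alternatives were chosen with earlier results of these data known. The genes named were all 9 members, the other S100 genes, all tested annexins, up to 6 called genes of each further list with the largest change, and up to 10 neighbours past the fold limit with the largest change. Promoter windows came from RefSeq, where 9 of 9 members matched, and their motifs were chosen after the values were seen. The values of 1 gene that this rule names are not reported here. ChIP-seq and HiChIP data were not analysed here.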

Additional observations from a re-analysis of the deposited data

How the results depend on the processing

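Alternatives were DESeq2 1.42.0, RLE factors, library totals, no low-count filter, 10 counts in every library, a replicate block, counts halved because both reads of a pair were counted, glmTreat, and each library left out in turn. None of these fits turned the direction of a member's log2 fold change, but on the TPM scale, used for levels only, the mean of S100A10 was 1134 in control and 1179 in Erastin cells, against 328 and 299 RPKM. TPM moved the median log2 ratio of all tested genes by 0.19 relative to RPKM, which bears on every TPM difference. Of 99 log2 fold changes of members under these fits, 94 kept their side of the threshold, 4 passed it (S100A2 with library totals, with the replicate block and without control replicate 1, and S100A10 without control replicate 1) and 1 was lost (S100A6 without Erastin replicate 2). With glmTreat, 0 members were up and 0 down, with 2 at an unadjusted p under 0.05 (S100A1 and S100A3), while DESeq2 with the fold limit called 1 up and 1 down. Over all genes glmTreat called 377 up and 748 down, since it tests the fold itself. The log2 fold change without one library ran from 1.48 to 1.91 for S100A1, from 0.25 to 0.70 for S100A2, from −1.58 to −1.17 for S100A3, from −0.41 to −0.11 for S100A4, from 0.14 to 0.25 for S100A6, from −0.19 to −0.082 for S100A10, from 0.42 to 0.49 for S100A11, from 0.060 to 0.27 for S100A13 and from −0.84 to −0.75 for S100A16. The labels number replicates without naming a pairing, and deviations of same-numbered libraries had a correlation of 0.0293 across genes. With the replicate block, 4 members were higher and 2 lower, and 1039 genes were up and 1568 down. With 16 to 69 counts, depth limits S100A1 most.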
